A study of Rattus norvegicus with 24 samples.

Results

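The genes described here encode the protein subunits of the mitochondrial respiratory chain and of the ATP synthase that works with it. They were taken by symbol: names that begin with Ndufa, Ndufb, Ndufc, Ndufs, Ndufv, Uqcr or Atp5, the genes Sdha to Sdhd, and names that begin with Cox4 to Cox8. The rule found 86 of the 14217 genes that the array annotation names singly. By symbol, 36 of these were placed in complex I, and 6 are complex I assembly factors whose symbols begin in the same way. Another 4 were placed in complex II, 7 in complex III, 17 in complex IV and 16 in the ATP synthase. Ndufa4, a subunit of complex IV, and its relative Ndufa4l2 were thus counted with complex I throughout. A gene with several probe sets was represented by the one with the highest mean log2 intensity over all 24 arrays, which mattered for 9 of the 86. Cox6c-ps1 carries the symbol of a pseudogene. Probe sets that the annotation shares between such a gene and a near copy, 7 in all, lay outside the rule, so that Atp5mc1, Atp5mc2, Cox7a2, Uqcrb, Ndufs5 and Ndufa10 were not counted.

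The respiratory chain sits in the inner mitochondrial membrane. Complexes I (NADH dehydrogenase) and II (succinate dehydrogenase) pass electrons from fuel molecules to ubiquinone, complex III (the cytochrome bc1 complex) passes them on to cytochrome c, and complex IV (cytochrome c oxidase) hands them to oxygen. Complexes I, III and IV pump protons as they work, and the ATP synthase uses their return to make ATP, on which neurons depend for ion pumping and for the release of transmitter and hormone. A few core subunits are encoded in mitochondrial DNA, while all the genes counted here are nuclear, and several subunits of complex IV have alternative forms that prevail in heart and skeletal muscle, lung or testis.

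The arrays compared 4 structures of male rats with roles in blood pressure and water balance. The spontaneously hypertensive rat (SHR) was measured in the pituitary's neurointermediate lobe (NIL, 5 arrays), in 2 hypothalamic nuclei, the paraventricular (PVN, 5 arrays) and the supraoptic (SON, 4 arrays), and in the brainstem's rostral ventrolateral medulla (RVLM, 5 arrays). The normotensive Wistar-Kyoto rat (WKY), its control strain, was measured in the RVLM (5 arrays), and its other structures were not analysed here. The labels name no treatment, give an age of 10 to 13 weeks (10 to 12 weeks for SHR NIL 2), and state that each array holds the pooled RNA of 5 rats. The number of replicates is therefore a number of pools, and the same rats could have given more than 1 structure. These are whole tissue samples, in which fewer cells of a type and less RNA per cell cannot be told apart.

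Most marker genes of the structures followed the labels. Intensity of Avp, the vasopressin precursor, was 3893 to 5284 in the PVN and 4592 to 5610 in the SON, against at most 27.7 in the RVLM. Pomc, made by melanotrophs, read 611 to 1243 in the NIL and at most 16.2 elsewhere, and Pnmt, the adrenaline-synthesising enzyme of RVLM neurons, read 113 to 251 in the RVLM and at most 16.5 elsewhere. Dbh, another enzyme of that pathway, was dim in the RVLM (26.9 to 49.6). Th, a further enzyme of the pathway, was lower in the RVLM (104 to 147) than in the PVN (149 to 391) or SON (425 to 524). The NIL arrays also carried Gh1 (693 to 6068), the growth hormone of the anterior pituitary, and Myh6 (818 to 1280), a heart myosin that stayed at or below 30.3 in the other groups. Of the 7 striated muscle markers on the array, 2 passed the filter on low values, and the other, Acta1, was lower in the NIL (40.6 to 62.2) than elsewhere (70.1 to 161). The array SHR PVN 3 correlated least with its own group (Spearman 0.912) and had the 3′ to 5′ signal ratios of 7.01 for actin and 3.33 for GAPDH. Its marker levels also differed from those of the other PVN arrays. Col1a2, a meningeal marker, read 1326 against 16.7 to 31.9, and Mobp, an oligodendrocyte marker, read 2664 against 267 to 516.

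Promoter sequences of the genes are shown because many respiratory chain genes are known to be driven by the factors NRF1, GABPA (NRF-2) and YY1. The part of these factors in the differences below was not tested. Windows of 300 bases, 250 before and 50 after the gene start, were taken from the RefSeq tables of build GRCr8, and 78 of the 86 genes had one. The 8-letter cores GCATGCGC (NRF1), CCGGAAGT (GABPA, an ETS factor core) and AAGATGGC (YY1) were searched on both strands and each was counted on its own, so that matches of different cores can share bases. The NRF1 core was found in 9 of the 78 windows (11.5%, against 2.66% of the windows of 27457 genes). The GABPA core was found in 8 (10.3%, against 4.01%) and the YY1 core in 17 (21.8%, against 3.44%). The 78 windows were also richer in the letters G and C (median 56.0%, against 52.3% over the 27457). The part of base composition in these counts was not tested. At least 1 core was present in 29 windows and none in 49. Only these exact letters were searched, so a window without a core can still hold a site with other letters. A match is a description of letters and shows no binding. The 250 bases before the start are printed 5′ to 3′ along the gene for 5 genes on which the results below turn, with a core in capitals where there is one (the GABPA core in Cox5b and, reversed, in Ndufs1, and the reversed NRF1 core in Uqcrc1).
Cox5b, chr9:46417587-46417836 (plus strand): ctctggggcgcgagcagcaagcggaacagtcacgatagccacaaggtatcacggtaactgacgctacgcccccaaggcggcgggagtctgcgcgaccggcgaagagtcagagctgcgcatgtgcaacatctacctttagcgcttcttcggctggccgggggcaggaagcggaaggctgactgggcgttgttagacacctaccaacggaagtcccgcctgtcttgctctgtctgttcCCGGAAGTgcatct
Ndufs1, chr9:72073606-72073855 (minus strand): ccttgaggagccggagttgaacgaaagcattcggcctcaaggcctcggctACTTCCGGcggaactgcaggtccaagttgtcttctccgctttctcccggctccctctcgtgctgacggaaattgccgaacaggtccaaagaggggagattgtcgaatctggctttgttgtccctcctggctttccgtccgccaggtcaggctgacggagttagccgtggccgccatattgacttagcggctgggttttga
Uqcrc1, chr8:118467973-118468222 (plus strand): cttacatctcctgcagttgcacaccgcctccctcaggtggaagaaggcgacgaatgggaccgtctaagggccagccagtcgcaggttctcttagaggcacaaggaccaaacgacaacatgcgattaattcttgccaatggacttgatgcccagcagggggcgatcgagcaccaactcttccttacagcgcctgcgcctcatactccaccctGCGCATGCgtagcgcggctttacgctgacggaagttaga
Cox5a, chr8:66818034-66818283 (plus strand): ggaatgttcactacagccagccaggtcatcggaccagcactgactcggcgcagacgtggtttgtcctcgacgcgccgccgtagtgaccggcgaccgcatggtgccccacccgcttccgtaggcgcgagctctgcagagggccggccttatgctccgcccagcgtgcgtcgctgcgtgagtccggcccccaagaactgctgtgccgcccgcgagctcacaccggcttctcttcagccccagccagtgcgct
Ndufv3, chr20:9613536-9613785 (plus strand): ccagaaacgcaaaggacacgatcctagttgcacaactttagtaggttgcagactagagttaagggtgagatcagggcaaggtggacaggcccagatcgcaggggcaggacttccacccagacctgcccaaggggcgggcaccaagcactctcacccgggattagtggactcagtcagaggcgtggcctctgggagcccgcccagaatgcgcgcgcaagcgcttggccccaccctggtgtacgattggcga

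Of the 17 YY1 matches, 15 began between 4 bases before and 36 bases after the gene start. This core contains the letters ATG, and whether these matches lie at the start of the protein-coding sequence was not tested. Likeness between them is therefore not evidence of YY1 sites. As examples, 30 bases around the core (in capitals) follow for 5 genes of complexes I, II, III and the ATP synthase.
Ndufb8, chr1:253362897-253362926 (minus strand): cggagaaggtgAAGATGGCggcgtcccggg
Ndufs7, chr7:10110476-10110505 (minus strand): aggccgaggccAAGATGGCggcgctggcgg
Sdhc, chr13:86098004-86098033 (minus strand): ggccggaactcAAGATGGCtgcgctcttgc
Uqcrc1, chr8:118468211-118468240 (plus strand): acggaagttagAAGATGGCggcgtccgcag
Atp5po, chr11:44657464-44657493 (minus strand): ctgcccgggaaAAGATGGCcgcaccagcaa
All 3 cores occurred both in genes that were called in the comparisons below and in genes that were not. The YY1 core was in 9 of the 45 windows of genes called lower in the NIL and in 8 of the other 33. For NRF1 these numbers were 5 and 4, and for GABPA 6 and 2. Among the 27 windows of genes called higher in the RVLM, NRF1, GABPA and YY1 cores were in 3, 4 and 4, and among the other 51 in 6, 4 and 13.

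One array stood apart in these genes and bears on most comparisons. On the array labelled SHR RVLM 2, 85 of the 86 genes were lower than the mean of the other 4 SHR RVLM arrays, with a median log2 difference of -0.76, and 80 lay below all 4. The exception was Cox4i2, the lung form of a complex IV subunit, at 0.05. Of all genes 60.7% were lower on this array, with a median of -0.10, and of the brightest 10% of genes 84.2%, with a median of -0.26. All parts of the chain shared the deficit: the median was -0.84 for complex I, -0.53 for complex II, -0.74 for complex III, -0.71 for complex IV, -0.75 for the ATP synthase and -0.42 for the assembly factors. The largest deficits among genes kept by the filter on low values were those of Ndufa2 (-1.48), Ndufb1 (-1.41), Uqcr10 (-1.40) and Uqcrq (-1.40), small accessory subunits of complexes I and III. The 46 cytosolic ribosomal protein genes were lower by a like amount (-0.86), as were the 54 genes of the mitochondrial ribosome (-0.60), whereas the citric acid cycle (-0.23), glycolysis (-0.24) and neuronal markers (-0.18) were less so. The 3′ to 5′ signal ratio of actin on this array, 2.18, was the lowest of the 24. Its part in the deficit was not tested, and results that rest on this array are given with and without it.

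The level of the whole set was followed array by array as the median, over the 86 genes, of the log2 intensity of a gene less its own mean over the 24 arrays. The NIL was lowest, at -0.33, -0.29, -0.28, -0.52 and -0.34 (mean -0.35 ± 0.0958, SD, n = 5). The PVN arrays read 0.13, -0.07, -0.07, -0.35 and -0.35 (mean -0.14 ± 0.205, n = 5). The SON arrays read 0.05, 0.18, 0.00 and 0.05 (mean 0.07 ± 0.0789, n = 4). No NIL array reached a SON or WKY RVLM array, while the PVN spanned the range from the NIL to the SON. The SHR RVLM arrays read 0.14, -0.47, 0.34, 0.29 and 0.45 (mean 0.15 ± 0.366, n = 5). The mean without SHR RVLM 2 was 0.31 ± 0.132 (n = 4), next to 0.30 ± 0.0784 (n = 5) for WKY RVLM, whose arrays read 0.19, 0.38, 0.26, 0.30 and 0.37. The SON and SHR RVLM levels did not differ beyond their spread with SHR RVLM 2 included, nor did the PVN and the SON or the PVN and the NIL in full, since single PVN arrays reached into either neighbour. Gene by gene within SHR, 58 of the 86 (67.4%) had their lowest group mean in the NIL, against 31.5% of all genes, and 53 (61.6%) had their highest in the RVLM, against 26.1%. Another 25 were highest in the SON, 5 in the PVN and 3 in the NIL.

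**Figure D1:**
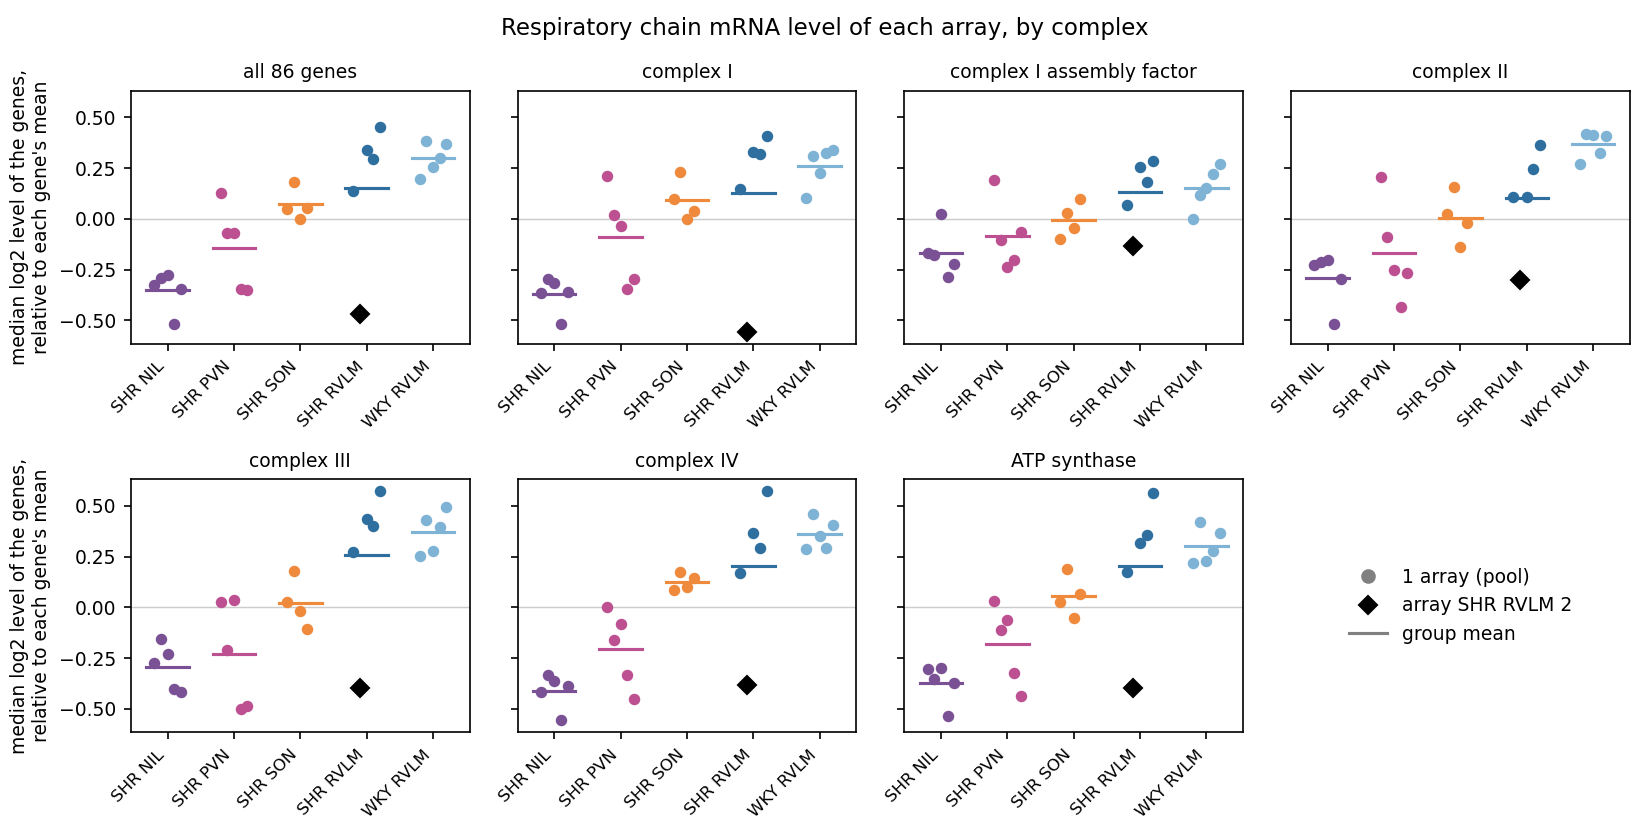
Median over the 86 genes of the log2 intensity relative to each gene's mean over 24 arrays (vertical axis), 1 point per array, with groups on the horizontal axis, lines for group means, a black diamond for SHR RVLM 2, and a panel for all genes and for each complex. Over all 86 genes the NIL arrays lie between -0.52 and -0.28, and SHR RVLM 2, at -0.47, lies below the other SHR RVLM arrays, which start at 0.14.

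The first comparison set the NIL against the mean of the PVN, SON and RVLM in SHR, and most of the chain was lower in the NIL. Of the 82 genes kept by the filter on low values, 49 fell and 1 rose at a limma adjusted p under 0.05, and 32 did not pass. Over all genes tested, 64.7% were called in this comparison, 29.9% lower and 34.9% higher, so that calls in general leaned slightly to the higher side. The median log2 difference of all 86 genes was -0.36, with 77 of them below 0, against 0.05 and 46.9% for all genes. By complex, calls lower were 22 of 36 in complex I (median -0.39), 2 of 4 in complex II (-0.25), 3 of 7 in complex III (-0.26), 9 of 13 tested in complex IV (-0.51) and 11 of 16 in the ATP synthase (-0.37). The assembly factors were divided, with 2 of 6 lower and 1 higher. Without SHR RVLM 2 the calls were 59 lower and 2 higher, and all 50 were among them (background 30.5% lower, 34.8% higher). Of the shared probe sets outside the rule, those of Cox5a, Cox7a2, Uqcrb, Ndufs5 and Ndufa10 were called lower with all arrays. That of Atp5mc2 was called higher (0.87, limma adjusted p = 3.11e-05), and that of Atp5mc1 did not pass.

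Ndufs1, the large iron-sulfur subunit of complex I whose promoter is printed above, had the lowest NIL values in relation to the other structures among genes whose groups did not overlap. Its intensity was 388, 392, 358, 364 and 370 in the NIL, 748, 613, 696, 555 and 579 in the PVN, 659, 683, 669 and 744 in the SON, and 838, 775, 882, 856 and 902 in the SHR RVLM. Every NIL array lay far below every other array, and the log2 difference was -0.99 (SE 0.0999, limma adjusted p = 1.53e-08). Ndufa8, an accessory subunit of complex I, read 671, 791, 709, 651 and 770 in the NIL and at least 1025 on all other SHR arrays (log2 difference -0.98, SE 0.115, limma adjusted p = 1.55e-07). The flavoprotein of complex II, Sdha, which also serves the citric acid cycle, read 442, 469, 415, 396 and 403 in the NIL. It read 948, 678, 894, 733 and 757 in the PVN, 746, 890, 829 and 820 in the SON, and 705, 686, 725, 700 and 738 in the SHR RVLM. The NIL arrays again lay apart from all others, which overlapped among themselves (log2 difference -0.92, SE 0.101, limma adjusted p = 5.55e-08).

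In complex IV, Cox5b, a zinc-binding structural subunit, read 1263, 1440, 1327, 1230 and 1294 in the NIL and at least 1706 elsewhere in SHR (log2 difference -0.82, SE 0.109, limma adjusted p = 1.05e-06). Ndufb9 of complex I read 934 to 1212 in the NIL and at least 1277 elsewhere (-0.81, SE 0.145, limma adjusted p = 4.55e-05). Overlap was judged after array medians were aligned, here and in the other comparisons. Groups without overlap were found for 11 of the 82 tested genes, all lower in the NIL. Of all tested genes 13.3% lay apart in each direction, so that the share lower was near the background. The other 6 of the 11 were Ndufaf7, Uqcrc1, Ndufab1, Ndufb3, Atp5me and Ndufs7, with log2 differences between -0.80 and -0.53. Complex IV subunits in their ubiquitous forms were mostly lower too. Cox4i1 fell by 0.42 (SE 0.106, limma adjusted p = 0.00179), Cox6a1 by 0.51, Cox6b1 by 0.57 and Cox7b by 0.55, while Cox6c (-0.22), Cox7c (-0.02) and Cox8a (-0.22) did not pass. Sdhb, the iron-sulfur subunit of complex II, fell by 0.32, a call that ended without SHR NIL 4 and after quantile normalization (-0.11, adjusted p = 0.215), while its membrane anchors Sdhc (-0.17) and Sdhd (-0.14) did not pass. The gene that rose was Ndufaf3, a complex I assembly factor, at 346, 343, 330, 290 and 335 in the NIL against 215 to 291 in the PVN, 225 to 317 in the SON and 140 to 243 in the SHR RVLM (0.39, SE 0.119, limma adjusted p = 0.00702).

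**Figure D2:**
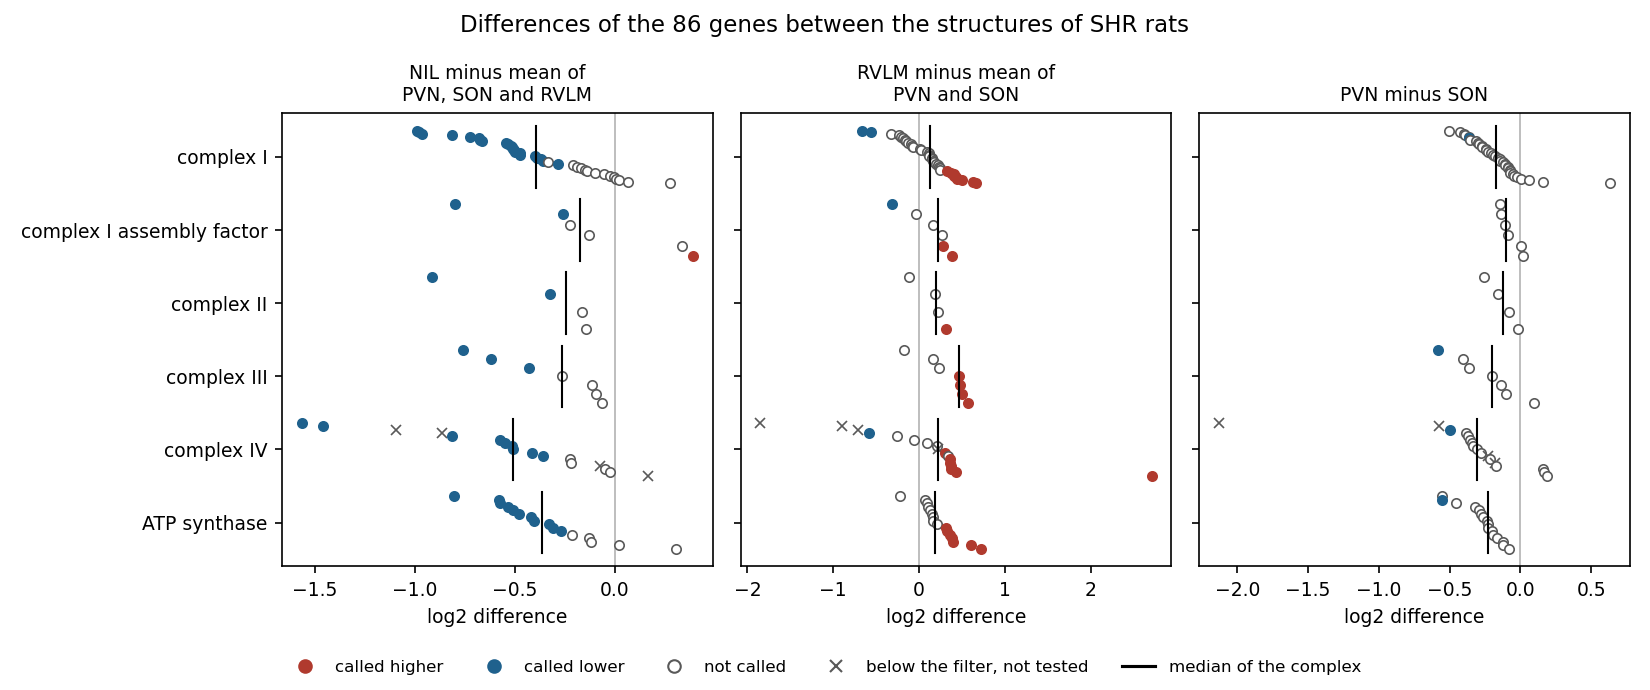
Log2 difference of each gene (horizontal axis) in the 3 structure comparisons of SHR, with genes grouped by complex on the vertical axis, filled points for genes called at an adjusted p under 0.05, crosses for genes below the filter and bars for medians. In the NIL comparison 77 of 86 genes lie below 0, in the RVLM comparison 63 lie above 0, and in the PVN against SON comparison 76 lie below 0.

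Levels of other cell types and pathways moved in the same comparison. Of the 12 neuronal markers (Snap25, Nefl and the like) 11 fell in the NIL, and their summed intensity was 4141 to 4555 there, 11203 to 12627 in the PVN, 10648 to 11518 in the SON and 26665 to 31964 in the SHR RVLM. All 6 tested astrocyte markers and all 6 oligodendrocyte markers fell, and 4 of 5 meningeal markers rose. The part of this cell make-up in the fall of the respiratory chain genes was not tested. Among pathways that feed the chain, 11 of 15 citric acid cycle genes fell, including Idh3a (-1.61, limma adjusted p = 7.05e-10) and Cs (-0.93), and 12 of 14 glycolytic genes fell, including Aldoc (-2.25). Of the carriers and pores of the mitochondrial membranes 10 of 19 fell, including Tomm70 (-1.39) and Vdac1 (-0.85). Assembly factors of the chain outside the 86 fell in 10 of 29 cases and rose in 3, and ubiquinone, cytochrome c and other electron-carrier genes fell in 6 of 16 and rose in 4. The 54 genes of the mitochondrial ribosome had 18 lower and 7 higher. Among 16 regulators of mitochondrial genes 3 fell and 5 rose: Ppargc1b, a coactivator of these genes, fell by 0.90, and Nrf1 rose by 0.72.

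The second comparison set the RVLM against the mean of the PVN and SON in SHR, and here calls leaned to the higher side. Of 82 genes kept, 30 rose and 4 fell (limma adjusted p under 0.05), and 48 did not pass. Over all genes tested 50.6% were called, 21.4% higher and 29.2% lower. After quantile normalization the split of the respiratory chain genes was 23 higher and 14 lower, against 20.7% higher and 34.1% lower among all genes. The median of all 86 genes was 0.18, with 63 above 0, against -0.08 and 43.7% for all genes. Complex III had the highest median (0.47, 4 of 7 higher). Higher calls numbered 9 of 36 in complex I (median 0.13), 1 of 4 in complex II (0.20), 7 of 13 tested in complex IV (0.22), 7 of 16 in the ATP synthase (0.19) and 2 of 6 assembly factors (0.22). Lower calls were Ndufv3, Ndufb1, Cox4i2 and Ndufaf3. Among the shared probe sets outside the rule, those of Cox5a, Ndufs5 and Ndufa10 were called higher. That of Atp5mc2 was called lower (-0.70, limma adjusted p = 0.00107), and the rest did not pass.

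The array SHR RVLM 2 moved this comparison most. Without it, 54 genes rose and 2 fell (Ndufv3 and Cox4i2), against 22.3% and 26.2% of all genes, and 32 of the 34 calls were among them. Calls higher were then 19 of 36 in complex I, 3 of 4 in complex II, 6 of 7 in complex III, 9 of the 17 of complex IV, 14 of 16 in the ATP synthase and 3 of 6 assembly factors. Leaving out SHR RVLM 4 or SHR RVLM 5 instead left 22 and 19 calls, and the shares over all genes were not computed for these settings. The 30 rises included 16 that were called without any 1 array of the fit.

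Cox5a, a structural subunit of complex IV, had the largest difference of all the genes. Its intensity was 800, 655, 809, 885 and 886 in the SHR RVLM against 124, 150, 111, 168 and 125 in the PVN and 123, 143, 150 and 85.2 in the SON. It was 63.3, 92.8, 89.3, 115 and 91.8 in the NIL and 785, 952, 775, 892 and 820 in the WKY RVLM. Every RVLM array of both strains lay several times above every array of the other structures, which overlapped (RVLM log2 difference 2.71, SE 0.141, limma adjusted p = 1.75e-12). A second probe set, which the annotation assigns to both Cox5a and LOC100361008 and which the rule therefore left out, gave a smaller step. It read 2182 to 3019 in the SHR RVLM, 1542 to 1764 in the PVN, 1776 to 2005 in the SON and 946 to 1042 in the NIL (RVLM log2 difference 0.66, SE 0.101, limma adjusted p = 1.34e-05). The direction was the same in both, and the size of the RVLM rise of Cox5a thus depended on the probe set read. Which part of the transcript each probe set reads was not analysed here.

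**Figure D3:**
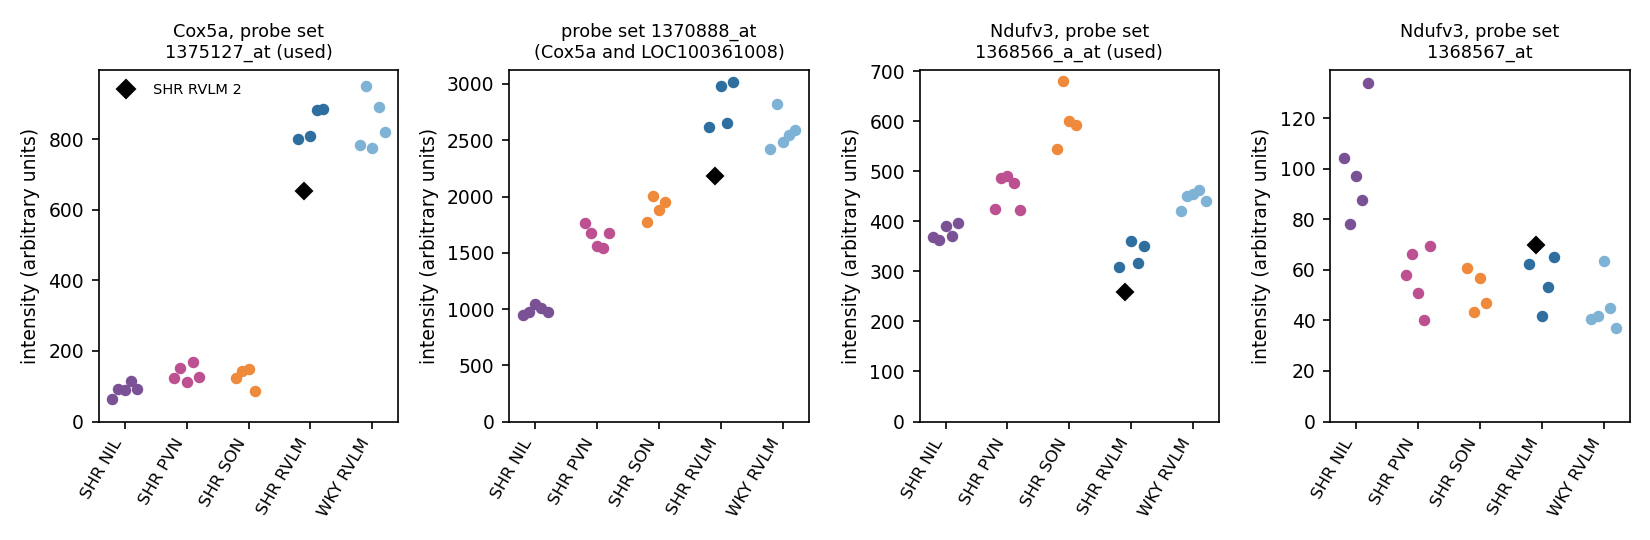
Intensity on each array (vertical axis, linear) for both probe sets of Cox5a and both of Ndufv3, by group on the horizontal axis. The chosen Cox5a probe set steps up from at most 168 in PVN and SON to at least 655 in the RVLM, the shared one rises from at most 2005 to at least 2182, and the 2 probe sets of Ndufv3 rank the groups differently.

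The catalytic beta subunit of the ATP synthase, Atp5f1b, was the other gene whose RVLM arrays lay above all PVN and SON arrays once array medians were aligned. It read 3503, 3109, 3534, 3209 and 3936 in the SHR RVLM against 2268, 2301, 2133, 2229 and 2104 in the PVN and 2764, 2314, 2555 and 2491 in the SON. The NIL arrays (1899, 1904, 1974, 1666 and 1888) were lower than all of these on the deposited scale, and the RVLM difference was 0.61 (SE 0.0973, limma adjusted p = 2.17e-05). On aligned values such separation was thus seen for 2 genes higher and 1 lower among those kept, against 9.09% and 11.1% of all genes tested. On the deposited scale it was seen for 6 higher (Cox5a, Atp5f1b, Atp5f1d, Ndufs1, Ndufv1 and Uqcrc2) and 1 lower, against 9.97% and 14.4%. Ndufa8 rose by 0.67 (SE 0.123, limma adjusted p = 0.000123) and Ndufs1 by 0.43 (SE 0.107, limma adjusted p = 0.00214). Chosen after their values were seen, Atp5f1d of the ATP synthase central stalk rose by 0.72, Ndufs4 by 0.63, and Uqcrfs1, Uqcrc1 and Uqcrc2, the Rieske protein and core proteins of complex III, by 0.58, 0.50 and 0.47. Each of these 5 rises was called under every alternative and without any 1 array.

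Other genes of complex IV that rose in the RVLM were Cox4i1 (0.36, limma adjusted p = 0.0112), Cox6b1 (0.38, 0.0141 by the same test), Cox6c (0.37), Cox7b (0.43), Cox7c (0.36) and Cox5b (0.30). The calls of Cox6b1, Cox6c, Cox7c and Cox5b were lost without SHR RVLM 5, where Cox7c dropped to 0.24. Those of Cox6c and Cox7c were also lost without SHR RVLM 3 or SHR RVLM 4, that of Cox7c without SHR SON 3, and that of Cox5b without any of 8 other arrays (adjusted p up to 0.139). After quantile normalization Cox4i1 (0.14), Cox6c (0.13) and Cox5b (0.14) no longer passed. Ndufb1, a small accessory subunit of complex I, read 562, 278, 745, 633 and 803 in the SHR RVLM against 591 to 935 in the PVN and 901 to 1117 in the SON (-0.56, SE 0.203, limma adjusted p = 0.0256). The groups overlapped with the PVN, and the call was lost without SHR RVLM 2, its lowest array (-0.28, adjusted p = 0.124), or without SHR RVLM 1 (-0.54, adjusted p = 0.0528). Neuronal markers rose here in 9 of 12 cases and oligodendrocyte markers in 6 of 6, and their part in these rises was not tested. Citric acid cycle genes rose in 7 of 15 cases and fell in 1, and glycolytic genes rose in 7 of 14 and fell in 2. Carriers and pores of the mitochondrial membranes rose in 6 of 19 cases and fell in 1. Not all mitochondrial lists rose: the mitochondrial ribosome had 8 of 54 genes higher and 11 lower (median -0.10). Electron-carrier genes had 2 of 16 higher and 3 lower. Assembly factors of the chain outside the rule had 5 of 29 higher and 2 lower (median -0.01). Among 16 regulators of mitochondrial genes 6 rose and 2 fell. Esrrg, a nuclear receptor that acts on genes of oxidative metabolism, rose by 2.54 (limma adjusted p = 3.34e-11), Ppargc1b rose by 0.85 and Nrf1 fell by 0.97.

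**Figure D4:**
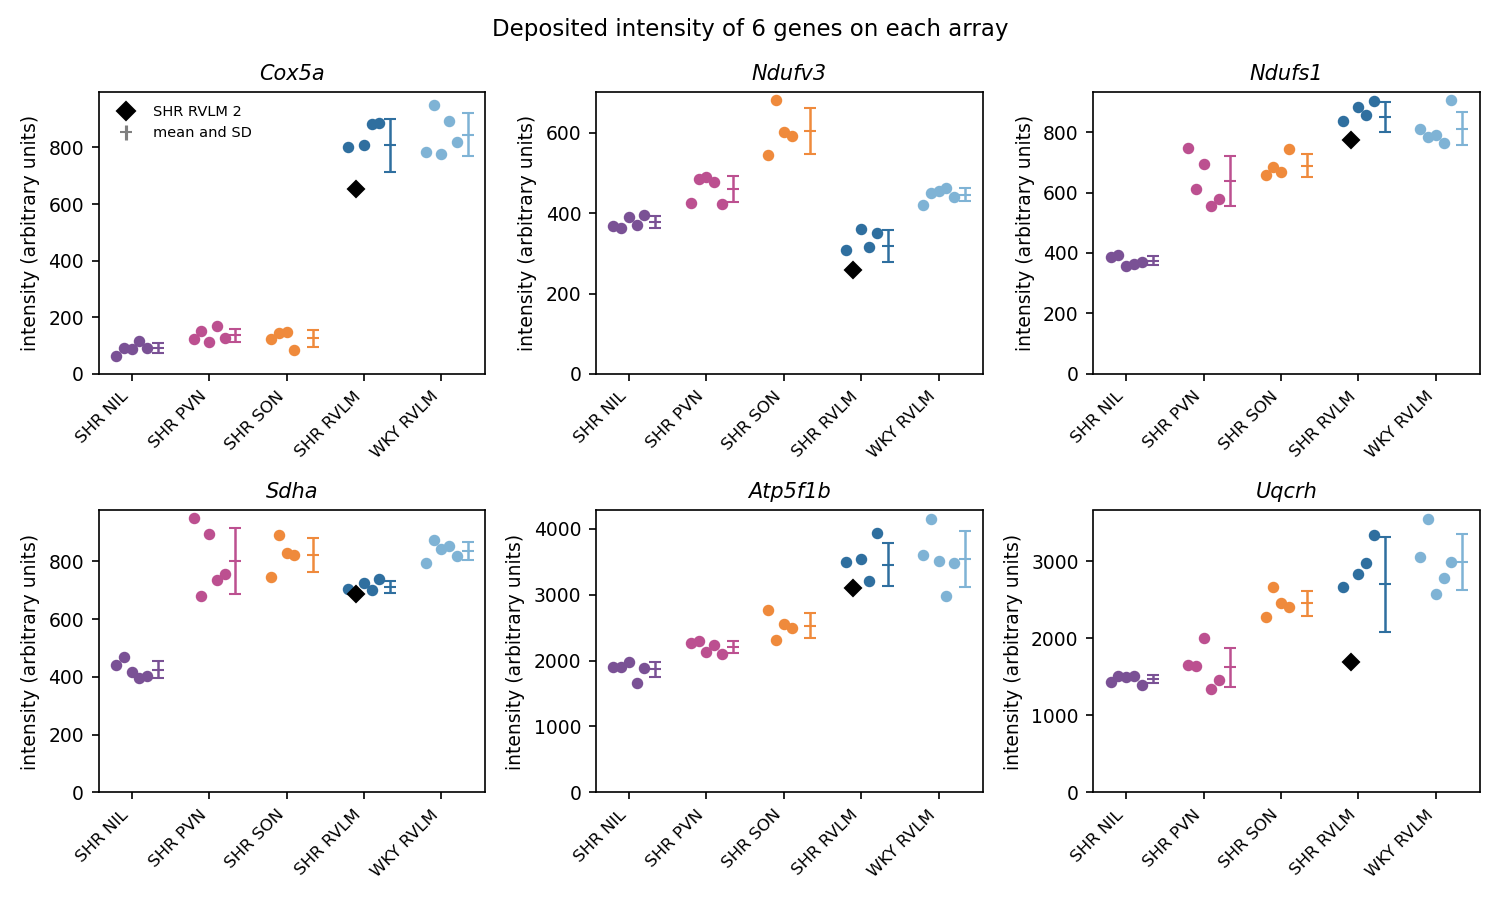
Intensity on each of the 24 arrays (vertical axis) for 6 respiratory chain genes, with the 5 groups on the horizontal axis, 1 point per array, group means with SD, and a black diamond for SHR RVLM 2. The 5 NIL arrays of Ndufs1 (358 to 392) and Sdha (396 to 469) lie below all other arrays, and all Atp5f1b arrays of the RVLM in SHR (3109 to 3936) lie above those of the PVN and SON.

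The third comparison set the 2 nuclei that hold vasopressin and oxytocin neurons against each other, and few of the respiratory chain genes passed. Of 82 genes kept, 4 fell and none rose (limma adjusted p under 0.05), against 7.12% and 9.02% of all genes tested and 16.1% in both directions, so that the share called was below the background. At an unadjusted p under 0.05 there were 17, all lower, a count without a background since the share of all genes at that threshold was not computed. The median of all 86 genes was -0.20, with 76 below 0, against 0.01 and 48.6% for all genes. On aligned values every PVN array lay below every SON array for 12 genes (4.91% of all genes tested did so), of which 6 belong to complex IV. On the deposited scale this was so for 26 genes, against 8.35%. Among all members of complex IV the median was -0.31, against -0.17 in complex I, -0.12 in complex II, -0.20 in complex III and -0.23 in the ATP synthase.

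Uqcrh, the hinge protein of complex III, read 1655, 1643, 2001, 1339 and 1460 in the PVN against 2273, 2668, 2458 and 2405 in the SON (log2 difference -0.58, SE 0.178, limma adjusted p = 0.0323). The groups did not overlap. Cox7b read 1853, 1952, 2186, 1680 and 1707 in the PVN against 2541, 2875, 2642 and 2726 in the SON (-0.50, SE 0.147, limma adjusted p = 0.0251). Atp5mg, a membrane subunit of the ATP synthase, read 1462, 1643, 1256, 1516 and 1369 in the PVN against 2071, 2312, 2071 and 2185 in the SON (-0.55, SE 0.17, limma adjusted p = 0.0327). In both genes every PVN array lay below every SON array. Ndufv3 was the remaining call (-0.36, SE 0.119, limma adjusted p = 0.042). All 4 calls were lost on leaving out certain arrays: none was left without SHR PVN 4, SHR PVN 5, SHR SON 2, SHR SON 3 or SHR SON 4. There were 16 calls, all lower, without SHR RVLM 2, which enters this comparison only through the shared estimate of the spread. The share over all genes was not computed in that setting. On the deposited scale there were 19, all lower, against 11.2% lower and 10.3% higher among all genes. Without SHR PVN 3 there were 6, against 11.4% lower and 11.6% higher among all genes. In the same comparison 4 of 6 astrocyte markers and 5 of 5 meningeal markers were lower in the PVN, the latter with a median of -3.24. The meningeal difference did not hold for SHR PVN 3, where Lum, Ogn and Dcn lay within the SON range. Its Col1a2 read 1326, against 274 to 1046 in the SON and at most 31.9 on the other PVN arrays. Its Ptgds, at 4749, lay just below the lowest SON value of 4986. The part of these markers was not tested.

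The fourth comparison set SHR against WKY in the RVLM. One gene of the 81 kept, Ndufv3, was lower in SHR and none was higher (limma adjusted p under 0.05), against 0.865% lower, 0.548% higher and 1.41% in all among the genes tested. At an unadjusted p under 0.05 there were 6, all lower. The share of all genes at that unadjusted threshold was not computed, so this count has no background. The median of all 86 genes was -0.15, with 78 below 0, against -0.03 and 56.6% for all genes. Without SHR RVLM 2 the median was -0.00, with 45 of 86 below 0, and Ndufv3 remained the single call (background 0.749% lower, 0.567% higher). By complex, the medians with all arrays were -0.17 for complex I, -0.28 for complex II, -0.16 for complex III, -0.14 for complex IV and -0.13 for the ATP synthase. Without SHR RVLM 2 they were 0.01, -0.20, 0.00, -0.00 and -0.01, so that complex II alone kept a median beyond 0.1 in size.

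Ndufv3, whose product is the small flavoprotein fraction subunit of complex I and whose promoter is printed above, read 308, 259, 361, 317 and 351 in the SHR RVLM against 421, 451, 455, 463 and 440 in the WKY RVLM. Every SHR array lay below every WKY array (log2 difference -0.52, SE 0.114, limma adjusted p = 0.0237). Without SHR RVLM 2, the lowest array, the difference was -0.42 (limma adjusted p = 0.0223), while leaving out SHR RVLM 1, WKY RVLM 2, WKY RVLM 4 or WKY RVLM 5 raised the adjusted p to between 0.0581 and 0.0764. The same probe set read 368, 362, 390, 370 and 396 in the NIL, 425, 486, 490, 477 and 422 in the PVN, and 545, 681, 601 and 593 in the SON. The SHR RVLM thus had the lowest mean of the SHR structures (RVLM minus PVN and SON log2 difference -0.67, SE 0.0989, limma adjusted p = 9.35e-06), a comparison that uses the same SHR RVLM arrays as the strain comparison. A second, dimmer probe set of Ndufv3 did not show the strain difference. It read 42 to 70 in SHR and 37 to 64 in WKY (0.33, limma adjusted p = 0.546), and in the NIL it was higher rather than lower (0.80, limma adjusted p = 0.000124, against -0.28 with the brighter one). With the mean of both probe sets the strain difference was -0.09 (limma adjusted p = 0.847), and the RVLM (-0.22, adjusted p = 0.0861) and PVN against SON (-0.11, adjusted p = 0.612) differences no longer passed. The statements on Ndufv3 therefore hold for 1 of its 2 probe sets.

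**Figure D5:**
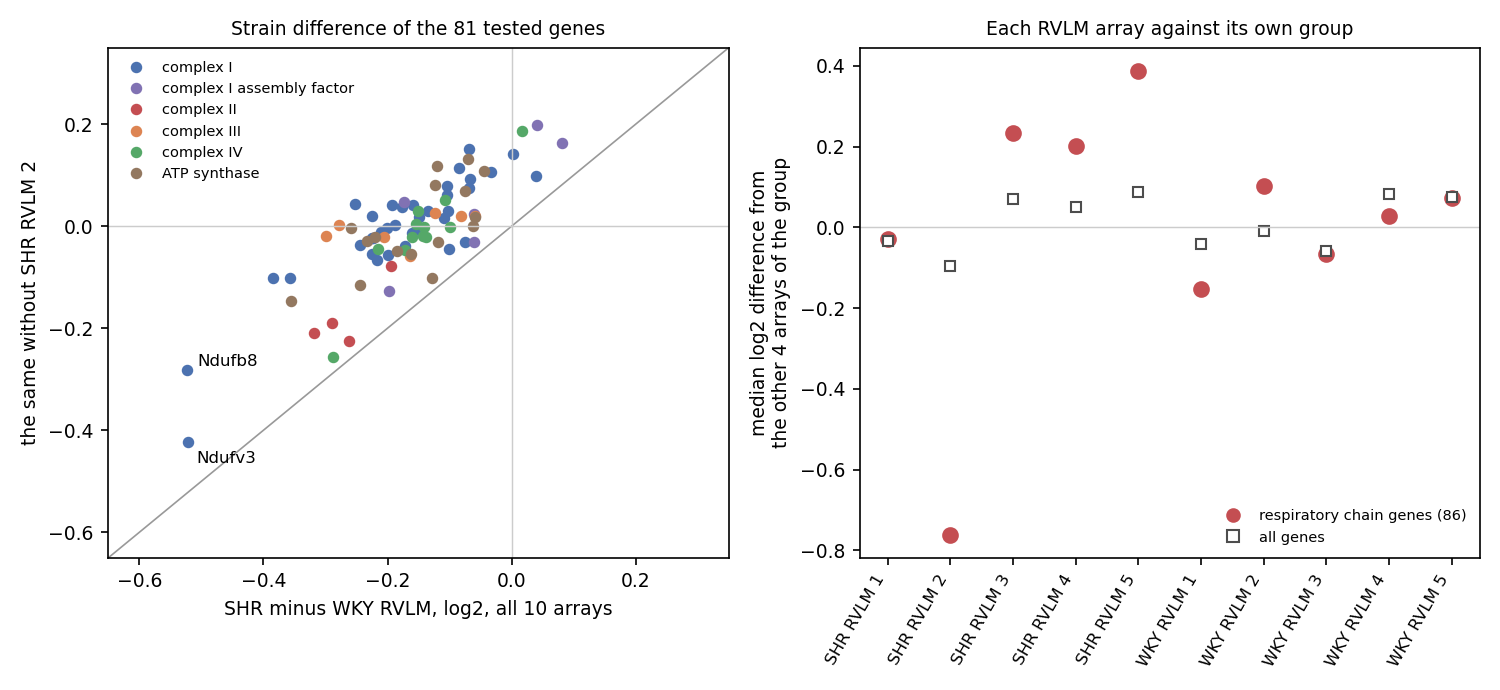
Left, SHR minus WKY log2 difference of the 81 tested genes with all 10 RVLM arrays (horizontal axis) and without SHR RVLM 2 (vertical axis), coloured by complex; right, the median difference of each RVLM array from the other 4 of its group for the 86 genes (filled) and all genes (open). Most genes lie left of 0 and scatter around 0 vertically, Ndufv3 is low on both axes (-0.52 and -0.42), and SHR RVLM 2 stands at -0.76 on the right.

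In complex II, the smallest of the complexes, 3 of 4 genes passed an unadjusted p of 0.05 in the strain comparison, and none passed after adjustment. Here too the share of all genes at the unadjusted threshold was not computed. Sdha read 705, 686, 725, 700 and 738 in SHR against 794, 873, 842, 851 and 817 in WKY (-0.26, SE 0.0888, limma adjusted p = 0.244). Its groups did not overlap, which was so for 2 of the genes kept, the other being Ndufv3, both lower in SHR. Of all genes tested 1.86% lay apart in that direction and 1.14% in the other. Sdhc read 794, 606, 778, 829 and 861 against 911, 1004, 1048, 870 and 874, a narrow gap on the deposited scale that closed once array medians were aligned (-0.32, SE 0.116, limma adjusted p = 0.303). Sdhd differed by -0.29 (limma adjusted p = 0.387) and Sdhb by -0.19 (limma adjusted p = 0.682). Without SHR RVLM 2 the 4 differences were -0.22, -0.21, -0.19 and -0.08 for Sdha, Sdhc, Sdhd and Sdhb, with adjusted p from 0.299 to 0.913. With all arrays, a second Sdhd probe set, with means of 520 in SHR and 542 in WKY, differed by only -0.09 (limma adjusted p = 0.858). Ndufb8 had the largest difference by size, at 221, 108, 216, 225 and 248 in SHR against 282, 311, 292, 216 and 287 in WKY (-0.52, SE 0.195, limma adjusted p = 0.329). Its groups overlapped, and it was -0.28 without SHR RVLM 2. The highest positive difference among genes kept was that of Ndufaf5 (0.08, limma adjusted p = 0.878). In the other lists none of the citric acid cycle, glycolysis, carrier or regulator genes was called between the strains, and 1 of 54 mitochondrial ribosome genes was (Mrpl4, -0.48, limma adjusted p = 0.00997).

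The tissue-restricted forms of complex IV subunits were dim in all structures. The testis forms Cox6b2 and Cox7b2 and the muscle forms Cox6a2 and Cox8b lay below the filter when all arrays were used. With no filter, Cox6b2 passed in the RVLM (-1.85, limma adjusted p = 7.61e-05) and Cox6a2 in PVN against SON (-2.13, limma adjusted p = 0.0407). Cox6a2 read 57.5 to 92.7 in the SON, 4.49 to 63.4 in the PVN, 6.04 to 19.8 in the NIL and 4.12 to 32.6 in the SHR RVLM. Only the SHR PVN 3 value of 63.4 reached into the SON range. Cox6b2 read 20 to 35.3 in the SON and 3.57 to 8.84 in the SHR RVLM. Cox7a1, a heart and muscle form, read 24.5, 3.35, 13.6, 43.7 and 27.5 in the NIL against 59.4, 47.4, 74.9, 79.8 and 29.3 in the PVN and 32.8 to 67.6 in the SON (NIL log2 difference -1.56, SE 0.406, limma adjusted p = 0.002). The NIL overlapped each of these groups. Without SHR NIL 2, its lowest array, the difference was -0.99 (limma adjusted p = 0.0107), and the gene lay below a filter at the 60th percentile. Cox4i2 fell in the RVLM, at 27.7, 23.9, 25.0, 13.8 and 21.1 against 26.2 to 45.6 in the PVN and 24 to 42.8 in the SON (-0.58, SE 0.18, limma adjusted p = 0.0102, and 0.0512 without SHR RVLM 4). Ndufa4l2, a relative of the complex IV subunit Ndufa4, was dim as well (14.9 to 64.6 over the SHR arrays) and did not pass in any structure comparison. The ATP synthase inhibitor Atp5if1 fell by 0.42 in the NIL (limma adjusted p = 0.0185) and rose by 0.39 in the RVLM (limma adjusted p = 0.0463). Leaving out SHR NIL 4 ended the first call, and leaving out any of 16 of the 19 arrays ended the second. Quantile normalization ended both (-0.19, adjusted p = 0.138, and 0.24, adjusted p = 0.0963), and no filter or the replicate number as a block also ended the second. Without SHR RVLM 2 the RVLM rise was 0.59. A dimmer probe set of Atp5if1 rose by 1.15 in the RVLM (limma adjusted p = 1.93e-05) and fell by 0.45 in the NIL (limma adjusted p = 0.0235). Another dim probe set passed in neither (0.26 and 0.02). With the mean of its probe sets the RVLM rise was 0.63 (limma adjusted p = 3.49e-05).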

How the data were processed

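The 24 arrays are Affymetrix rat expression arrays, 1 per pool of 5 rats. The deposited values are linear intensity per probe set, made by the authors with GCOS 1.2, per the submitters' processing notes. How GCOS was set is not stated in the labels. Every array had a 2% trimmed mean of about 100 and a median between 35.9 and 46.5. Their number limits the precision.

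Values were log2-transformed without a pseudocount, each array was shifted to a common median, and 57 control probe sets were left out. Probe sets above the 40th percentile of mean log2 in a fit were tested, 18625 in each, in limma 3.58.1 (R 4.3.3; lmFit, then eBayes with an intensity trend). Benjamini-Hochberg adjustment ran over all of them, and "called" means an adjusted p under 0.05. The strain fit used 10 arrays and the structure fit all 19 SHR arrays. SE is the standard error of a log2 difference. Groups overlap unless every array of one lies beyond every array of the other, judged on median-aligned values. Counts of genes tested were 10400 and 10596.

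Genes named were the 5 largest rises and falls among called genes without overlap, complex IV isoforms, complex II, Atp5if1, the brightest gene of each complex, the 5 largest strain differences each way, any gene called without SHR RVLM 2, and up to 3 called genes of each other list. The genes, lists and rules were chosen with earlier results of these data known. On simulated data of the strain fit 85% of log2 changes of 1 and 27% of those of 0.5 were called (18625 probe sets), and 73% and 21% for PVN against SON. Alternatives were the deposited scale, quantile normalization, a pseudocount of 16, no filter or the 60th percentile, the mean of probe sets, the replicate number as a block, all 24 arrays in a fit, and each array left out.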

Additional observations from a re-analysis of the deposited data

Results flagged for a closer look

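Among 200 groups of 4 or 5 arrays tested with Dixon's test, for the named respiratory chain genes and the level of the whole set, 18 held a highest or lowest array far from the rest, where chance sets apart about 1 in 20. In the NIL, SHR NIL 4 was low for the level of the whole set (-0.52), for Atp5f1b (1666) and for Ndufaf3 (290.5). SHR NIL 1 was high for Cox6b2 (25.4) and SHR NIL 3 for Cox8b (7.59), both dim genes. In the PVN, SHR PVN 3 was high for the same 2 isoforms, Cox6b2 (30.9) and Cox8b (10.4), and SHR PVN 1 for Sdhd (697). In the SON, SHR SON 2 was high for Ndufa1 (3296.5) and SHR SON 4 for Ndufaf5 (217). SHR RVLM 2 was low for Cox6b1 (1269), Ndufaf8 (157), Ndufb8 (108) and Ndufb9 (1388). WKY RVLM 2 was high for Atp5mg (2310), Cox5b (3217), Ndufa4 (2103) and Ndufa8 (2446).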

How the results depend on the processing

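The single strain call (Ndufv3) was lost with the mean of its probe sets (0 calls), and with 1 array left out the count was 0 to 1. In the NIL the count of 50 calls stayed between 48 and 53 under other settings and between 43 and 61 with 1 array left out. The RVLM count of 34 ranged from 19 (without SHR RVLM 5) to 56 (without SHR RVLM 2). The PVN against SON count of 4 was 19 on the deposited scale, 2 with no filter and 0 to 16 with 1 array left out. Shares over all genes were computed for only some of these settings. Medians of the 86 genes kept their direction in the structure comparisons. With 1 array left out they ran from -0.40 to -0.33 in the NIL, 0.11 to 0.36 in the RVLM and -0.26 to -0.16 for PVN against SON. Between strains they ran from -0.23 to -0.00, and without SHR RVLM 2 no direction was left. After quantile normalization the medians of these comparisons, in the same order, were -0.24, 0.05, -0.13 and -0.09. One called value turned its direction: the NIL difference of Ndufv3 was 0.26 with the mean of its probe sets. Another 2, uncalled before, turned and passed in the NIL after quantile normalization, Ndufb11 (0.22) and Uqcrfs1 (0.16). Of the uncalled genes, 40 between strains, 25 in the NIL, 29 in the RVLM and 19 for PVN against SON changed sign under at least 1 alternative. Quantile normalization moved 18 of the called differences in the NIL and 15 in the RVLM by over 1.5 times, of which 12 and 8 were still called. The cause was not tested. With the replicate number as a block the calls were 1 between strains, 49 in the NIL, 28 in the RVLM and 3 for PVN against SON. The arrays share only a number: deviations of same-numbered arrays correlated at -0.11 to 0.17 over 27 pairs of structures and at -0.08 to 0.11 over 5 pairs of strains. Of the 49 falls in the NIL 36 were called under every alternative and with any 1 array left out, as was the rise of Ndufaf3. This held for 15 of the 30 rises in the RVLM, for none of its 4 falls, and for no call of the other comparisons. Dim isoforms near the filter are limited by background signal.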
